A study of Arabidopsis thaliana with 4 samples.

Results

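The genes described here are nuclear Arabidopsis genes whose symbol in the reference gene table is a bare locus number. Each has a probe set with a deposited signal of 3000 or more on all 4 arrays. There were 50 of them, of 11715 locus-named nuclear genes read by a probe set of their own and 13286 genes so read in all. Loci AT2G07600 to AT2G07799 were left out by the rule. The signals on the 4 arrays chose the genes, so their levels are a description, and the rule also keeps out any gene that was bright in 1 preparation and dim in the other. A probe set's signal depends on its own probes as well as on the amount of transcript, so the signals of different genes were not set against each other, and "bright" is used below in place of "abundant".

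The arrays were Affymetrix ATH1 arrays of seedling roots of the ecotype Columbia, 6 days after germination. Sorted protoplasts (2 arrays) were root cells freed by digesting the cell walls and run through a cell sorter, with all cells kept. Whole roots (2 arrays) were harvested intact. Every root of both groups had been moved to 140 mM NaCl for 1 hour, so no array shows roots without salt. Nothing states that the 2 replicates of a preparation were grown apart, so intervals and p-values below cover the spread of these 4 samples alone, and part of it may be technical. The question here is how far the most brightly read genes of salt-treated roots differ once the cells have been freed and sorted.

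Most of the genes belong to the machinery that every growing cell runs. Cytosolic ribosomes are built from ribosomal RNA and a large set of ribosomal proteins. In plants each ribosomal protein is usually encoded by several closely related genes. Mitochondria make ATP by passing electrons through complex I, the cytochrome bc1 complex and cytochrome c oxidase to oxygen, and ATP synthase uses the proton gradient that results. Most subunits of these complexes are encoded in the nucleus. Many late embryogenesis abundant (LEA) proteins, dehydrins among them, are small hydrophilic proteins that accumulate in plant cells under salt, drought or cold. Except for HIRD11 and LEA26, which the gene table lists as other names, the roles given here are general background on these loci and not content of the files.

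The 50 genes fell into 8 groups: 16 genes of cytosolic ribosomal proteins, 2 of translation factors, 10 of mitochondrial proteins, 5 of dehydration and stress proteins, 5 of metabolic enzymes, 5 of wall and secreted proteins, 2 of the family with YGL and LRDR motifs, and 5 others. All 16 ribosomal protein genes had a lower mean in sorted protoplasts than in whole roots, with a median log2 difference of -0.50. Of the 10 mitochondrial genes 9 did, with a median of -0.26. All 5 enzyme genes and 4 of the 5 dehydration and stress genes had a higher mean in sorted protoplasts, with medians of 0.21 and 0.19 as deposited and of -0.24 and -0.27 with arrays scaled on spike-ins. That scaling put the median of all tested probe sets at -0.57, against -0.16 as deposited. Each log2 difference is the mean of log2(signal + 16) in sorted protoplasts minus that in whole roots.

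Most of the 50 genes differed little between the preparations, and the rule itself limits how far they can differ. Their log2 differences lay between -0.98 and 1.02 with a median of -0.30, against -5.80 to 6.43 and a median of -0.16 over the 13647 probe sets tested. Of the 50 genes 36 differed by less than 0.5 in either direction, or 72% of them, against 77.3% of the 150 other probe sets with 3000 or more on all 4 arrays and 50.8% of all tested. The median size of the difference was 0.35 for the 50 genes, 0.25 for those 150 and 0.49 for all tested. In limma's fit over all tested probe sets, 10.5% passed an adjusted p of 0.05, 6.38% higher and 4.11% lower in sorted protoplasts (870 and 561 probe sets, against 421 and 680 with spike-in scaling). Of the 50 genes 0 passed in either direction, and at an unadjusted p under 0.05 there were 1 higher and 1 lower. In 5 of the 50 both sorted-protoplast signals lay above both whole-root signals and in 19 below. Over all tested the shares were 21.5% and 36.2%, or 57.7% in either direction. Among the 150 other bright probe sets there were 24 above and 24 below. Since the rule used the same signals, nothing is read from these counts. The smallest differences that passed anywhere were 1.21 and -1.22, and every member differed by less than that. The 95% intervals of the differences were 1.47 to 1.94 wide on the log2 scale and included 0 for 48 of the 50 genes. Only 9 of them lay wholly between -1 and 1, so for most of these genes a difference of 1 on the log2 scale is not excluded.

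**Figure D1:**
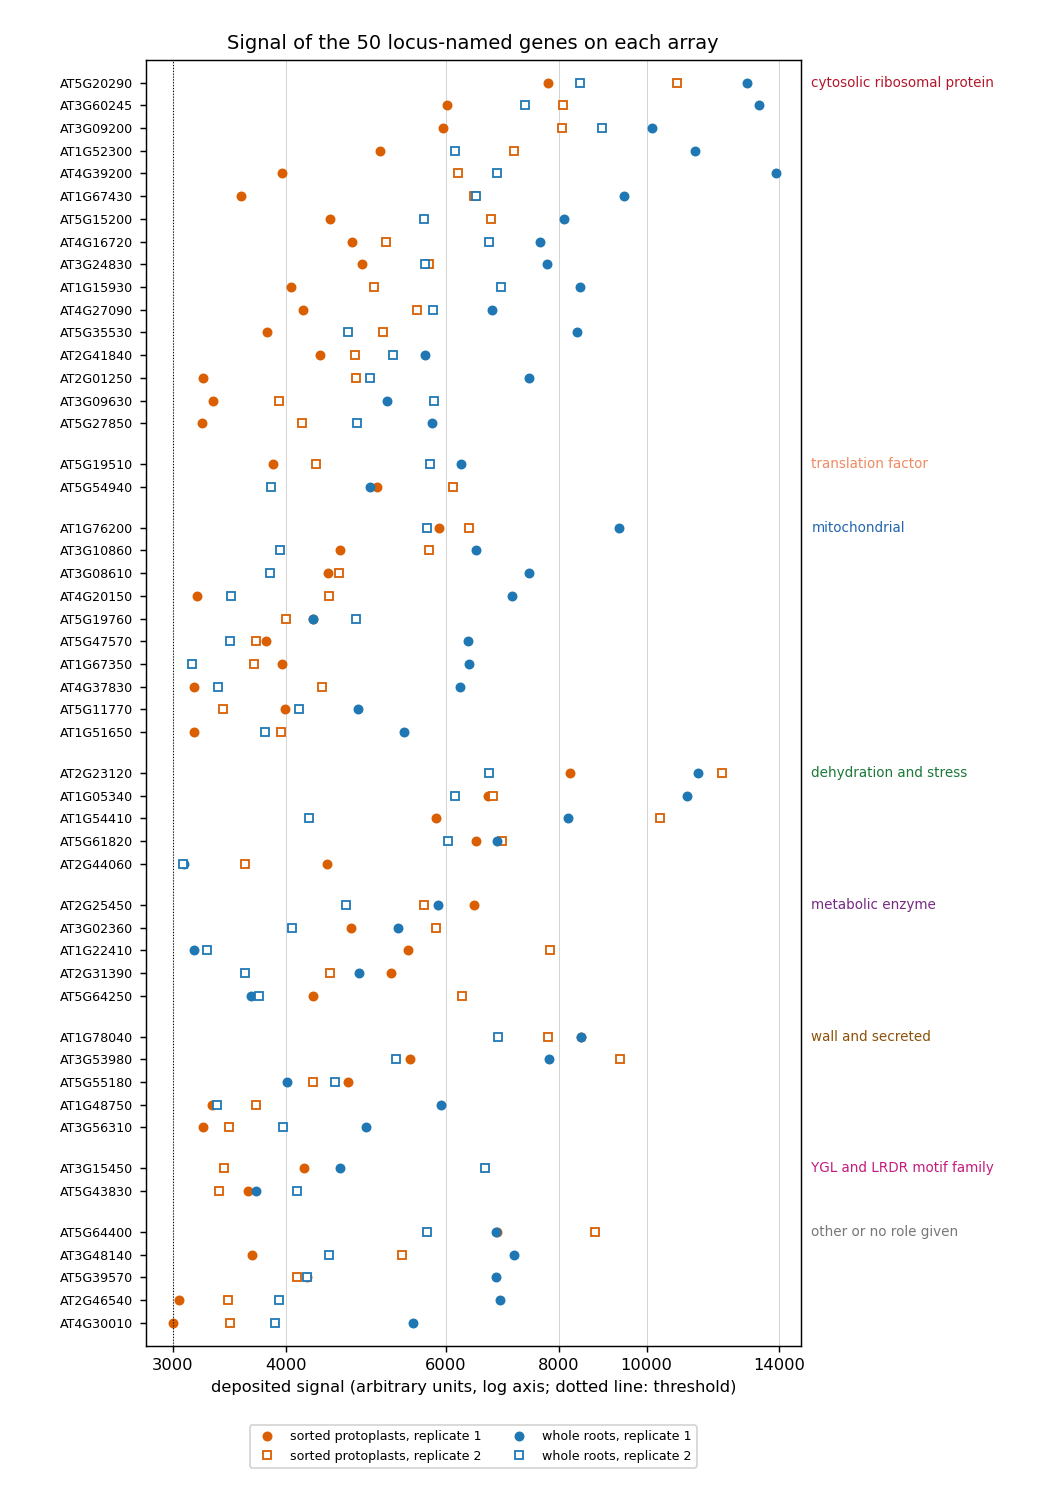
Deposited signal of the 50 genes on the 4 arrays, on a log axis, grouped by role. Each row is a gene, filled and open orange marks are sorted protoplasts replicates 1 and 2, filled and open blue marks are whole roots replicates 1 and 2, and signals run from 3002 to 13901.

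**Figure D2:**
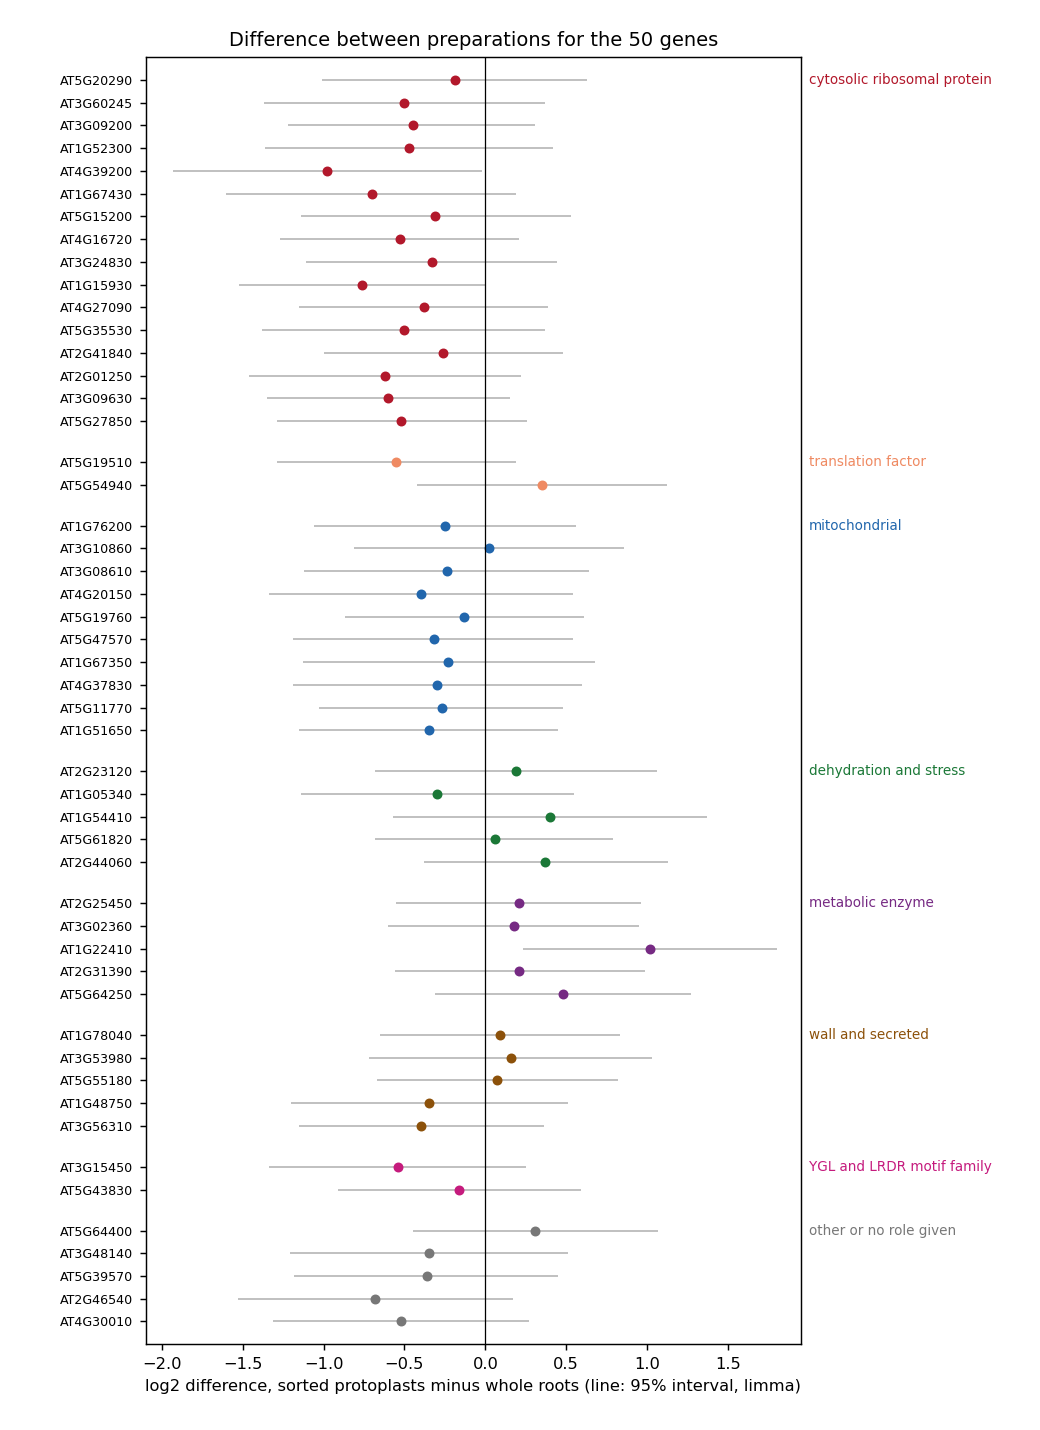
Log2 difference between sorted protoplasts and whole roots for the 50 genes, with the 95% interval from limma as a line. Points of all 16 ribosomal protein genes lie below 0, points of all 5 enzyme genes lie above 0 (3 of them below 0 with spike-in scaling), and 48 of the 50 intervals include 0.

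The highest and lowest signals of these genes were spread unevenly over the 4 arrays. Whole roots replicate 1 had the highest of the 4 signals for 32 of the 50 genes, or 64%, against 46% of the 150 other probe sets as bright on all 4 arrays and 28.2% of all tested. Among those 150 others, sorted protoplasts replicate 2 was highest nearly as often, for 65 against 69 for whole roots replicate 1. Sorted protoplasts replicate 1 had the lowest signal for 25 of the 50 genes, or 50%, against 50.7% of the others and 26.6% of all tested. The mean of log2(signal + 16) over the 50 genes was 12.14 and 12.39 on the sorted-protoplast arrays, against 12.70 and 12.25 on the whole-root arrays. Over all tested probe sets it was 8.11 and 8.07 in sorted protoplasts, against 8.09 and 8.17 in whole roots. The RNA had been amplified in 2 cycles, so ratios of 3' to 5' signal are not read here as RNA integrity alone. The ratio of 3' to 5' signal of the GAPDH control was 3.45 and 9.96 in sorted protoplasts and 15.02 and 4.56 in whole roots. The same ratio of the actin control was 41.5 and 27.2 in sorted protoplasts and 29.1 and 19.1 in whole roots, and that of the ubiquitin control 3.25 and 4.54 in sorted protoplasts and 4.92 and 3.24 in whole roots. The controls thus ranked the arrays differently, with whole roots replicate 1 highest for GAPDH and ubiquitin and sorted protoplasts replicate 1 for actin. Without whole roots replicate 1 the median difference of the 50 genes was -0.02, with 27 of 50 below 0, and without whole roots replicate 2 it was -0.55, with 42 of 50 below 0. The part of RNA quality or of any 1 library in these differences was not tested.

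**Figure D3:**
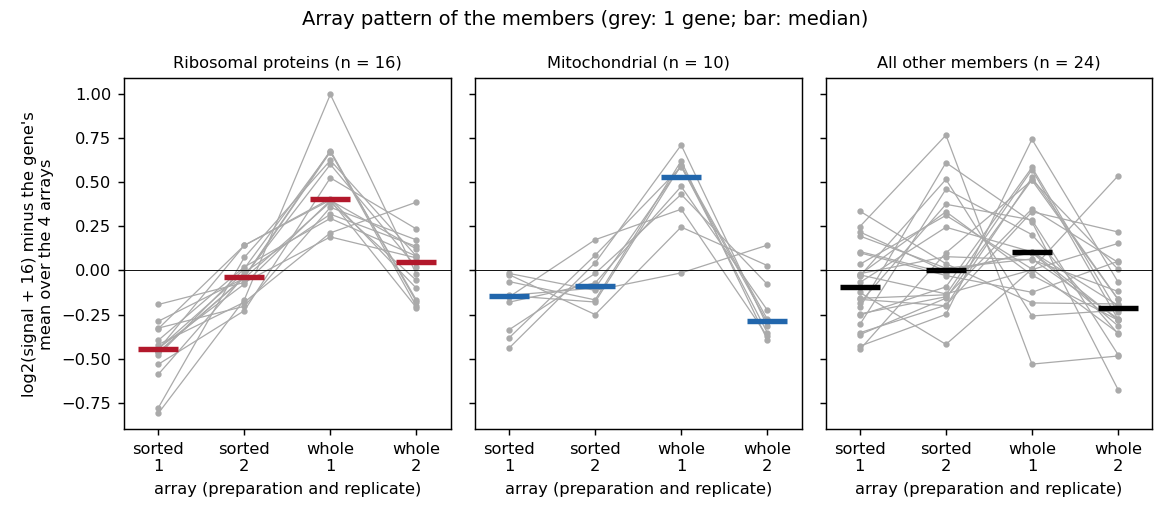
Array pattern of the 50 genes, as log2(signal + 16) minus each gene's mean over the 4 arrays, for ribosomal protein genes (16), mitochondrial genes (10) and all others (24). Grey points joined by a line are 1 gene, bars are medians, and the highest median stands at whole roots replicate 1 in each panel.

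The ribosomal protein genes shared a pattern over the arrays. Sorted protoplasts replicate 1 had the lowest of the 4 signals for all 16, against the 50.7% of other bright probe sets given above, and whole roots replicate 1 had the highest for 15 of the 16. For 10 of the 16 both sorted-protoplast signals lay below both whole-root signals. This held for 36.2% of all tested probe sets and for 24 of the 150 other bright ones. AT5G20290 (ribosomal protein S8 of the small subunit) had 7781 and 10798 in sorted protoplasts, against 12900 and 8448 in whole roots. Its groups overlapped, and its log2 difference was -0.19 ± 0.37 (SE).

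The gene with the largest difference below 0 was AT4G39200 (S25, a small subunit protein), with 3960 and 6197 in sorted protoplasts, against 13901 and 6847 in whole roots. Its log2 difference was -0.98 ± 0.43, with a 95% interval from -1.93 to -0.02, and its whole-root arrays differed by as much as the groups did. It did not pass as deposited, and it was called lower with arrays scaled on spike-ins (difference -1.43) and on the other bright probe sets (-0.92). With spike-in scaling 8 of the 16 ribosomal protein members were called lower, against 680 of the 13647 probe sets tested. That scaling moved the median of all tested probe sets to -0.57, from -0.16 as deposited. AT1G15930 (S12) had 4050 and 5002 in sorted protoplasts, against 8444 and 6904 in whole roots, with no overlap and a difference of -0.76 ± 0.34. Signals of AT1G67430 (L17, a large subunit protein) were 3566 and 6455 in sorted protoplasts, against 9455 and 6482 in whole roots. The higher sorted-protoplast signal of this gene came close to the lower whole-root one, and its difference was -0.70 ± 0.40.

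AT2G01250 (L7) had 3240 and 4776 in sorted protoplasts, against 7416 and 4950 in whole roots, and a difference of -0.62 ± 0.38. For AT3G09630 (L4) the signals were 3326 and 3931 in sorted protoplasts, against 5170 and 5833 in whole roots, and the difference was -0.60 ± 0.34. It was the only ribosomal protein gene among the 50 whose highest signal was on whole roots replicate 2. AT3G09200 (P0, the base of the stalk that recruits translation factors) had 5969 and 8065 in sorted protoplasts, against 10136 and 8926 in whole roots, without overlap and with a difference of -0.45 ± 0.34.

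In 6 of these genes the groups overlapped, with whole roots replicate 2 below sorted protoplasts replicate 2 in each. AT3G60245 (L37a) had 6018 and 8091 in sorted protoplasts, against 13307 and 7337 in whole roots. Likewise AT1G52300 (L37) had 5076 and 7142 in sorted protoplasts, against 11319 and 6151 in whole roots. AT5G20290 above was another, and so were AT5G15200 (S9), AT3G24830 (L13a) and AT5G35530 (S3). The ribosomal protein genes not yet given values, AT4G16720 (L15), AT4G27090 (L14), AT2G41840 (S2) and AT5G27850 (L18) among them, had log2 differences between -0.53 and -0.26.

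Genes of cytosolic ribosomal proteins outside the 50 showed the same direction more widely. A list written from general knowledge of the loci, with earlier results of these data known, held 207 genes, of which 116 could be read through a probe set of their own and 110 were tested. It included 15 of the 16 members, all but AT2G01250. Of the 110, 109 had a lower mean in sorted protoplasts, or 99.1%, against 59.1% of all tested probe sets. In limma's test 15 were lower and 0 higher, or 13.6% lower, against 4.11% of all tested, and at an unadjusted p under 0.05 there were 60 lower and 1 higher. The list's median log2 difference was -0.94, against -0.16 over all tested. All 15 that passed were outside the 50, where the median of 95 genes was -0.97.

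Of the 15 genes that passed, 3 reached 3000 on both whole-root arrays and 12 did not, and 0 reached it on both sorted-protoplast arrays. Values for 2 of those 3 follow. AT2G37190, for the large subunit protein L12, had 1943 and 1598 in sorted protoplasts, against 6780 and 5017 in whole roots, and a difference of -1.72 ± 0.35 on the log2 scale (SE; limma adjusted p = 0.0152). AT2G32060, for S12, had 1652 and 1568 in sorted protoplasts, against 7086 and 3962 in whole roots, a difference of -1.71 ± 0.38 (limma adjusted p = 0.0223). Both met the threshold in whole roots and missed it in sorted protoplasts. The exception among the 110 was AT2G32220, for L27, with 238 and 200 in sorted protoplasts, against 79 and 92 in whole roots, and a difference of 1.21 ± 0.34 (limma adjusted p = 0.0516).

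Other genes of the same ribosomal proteins were read for 12 of the members, 18 genes in all. All 18 had a lower mean in sorted protoplasts, with a median log2 difference of -0.97, and 14 lay further below 0 than the member did. For S12 the member AT1G15930 had a difference of -0.76, against -1.71 for AT2G32060. For L14 the member AT4G27090 had -0.38, and AT2G20450 had -1.53, from 617 and 723 in sorted protoplasts and 2652 and 1440 in whole roots. For S25 the order was the other way, with -0.98 for the member AT4G39200 and -0.78 to -0.62 for its 3 partners, and likewise for L17, with -0.70 for AT1G67430 and -0.66 for AT1G27400. The members were chosen for high signal on every array and the partners were not, and no difference between partners was tested. Near-identical copies can also share probes, although all 50 members have probe sets with the plain suffix, which the array maker uses where no cross-matching was foreseen.

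**Figure D4:**
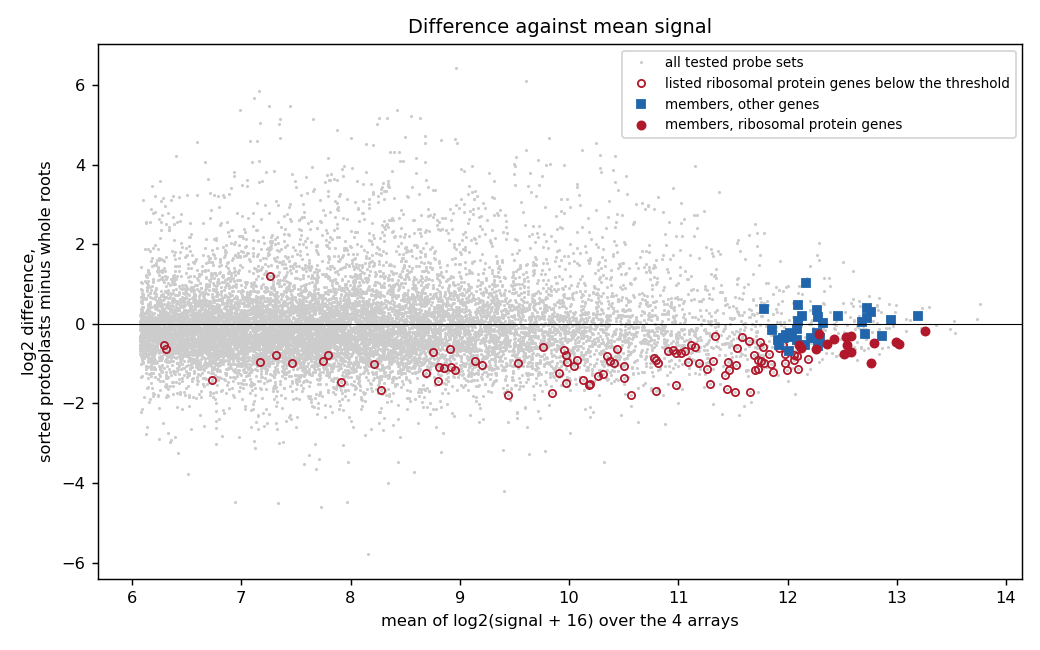
Log2 difference between sorted protoplasts and whole roots (vertical) against the mean of log2(signal + 16) over the 4 arrays (horizontal), for the 13647 probe sets tested. Filled red circles are the 16 ribosomal protein members, open red circles the 95 listed ribosomal protein genes outside the 50, of which 94 lie below 0, blue squares the other 34 members, and small grey points all probe sets.

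The direction of the ribosomal protein list held under every scaling of the arrays tried, with 109 of 110 below 0 in each, and the number that passed did not. It was 15 lower as deposited, 7 lower and 1 higher with array medians set equal, 27 and 1 with quantile normalization, 25 and 0 when arrays were scaled on the other bright probe sets, and 50 and 0 when scaled on spike-ins. Over all tested probe sets, 561 were lower as deposited, 388 with medians set equal, 583 with quantile normalization and 680 with spike-in scaling. Whole roots replicate 1 had the highest signal for 102 of the 110. Without that array the median was -0.63, with 108 of 110 below 0 and 0 passing, and without whole roots replicate 2 it was -1.17, with 109 below 0 and 0 passing. In these fits the lone whole-root array is assumed to vary as the sorted-protoplast arrays do. Without sorted protoplasts replicate 1 the number lower was 3, with a median of -0.72. With no filter on low signals it was 0. For the 16 members the median was -0.30 without whole roots replicate 1, with 15 of 16 below 0. In bulk samples such as these, fewer cells of a type and less RNA per cell cannot be told apart.

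The 2 translation factor genes went different ways. AT5G19510, for the subunit of elongation factor EF1B that reloads EF1A with GTP, had 3873 and 4319 in sorted protoplasts, against 6242 and 5763 in whole roots. Its groups did not overlap, and its log2 difference was -0.55 ± 0.33. AT5G54940, of the SUI1 family of factors that help to choose the start codon, had 5041 and 6115 in sorted protoplasts, against 4947 and 3846 in whole roots. Here sorted protoplasts were higher without overlap, and the difference was 0.35 ± 0.34. The test of the difference between these 2 genes was not made. Of a list of 16 translation factor genes 3 were tested and 0 passed, with 0 at an unadjusted p under 0.05.

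Of the 10 mitochondrial genes, 9 encode subunits of the respiratory chain or ATP synthase and 1 a carrier. For these 9 subunits the highest signal was on whole roots replicate 1 in every case, and for 5 of them the lowest was on whole roots replicate 2. For those 5 the whole-root arrays thus bracketed both sorted-protoplast arrays. AT1G76200, for a small complex I subunit, had 5907 and 6372 in sorted protoplasts, against 9319 and 5729 in whole roots, a difference of -0.25 ± 0.36. AT3G10860, for a subunit of the cytochrome bc1 complex, had 4593 and 5753 in sorted protoplasts, against 6488 and 3936 in whole roots. Its difference of 0.02 ± 0.37 was the only one of the 10 above 0.

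AT1G67350, for another complex I subunit, had 3960 and 3684 in sorted protoplasts, against 6371 and 3150 in whole roots. Its whole-root arrays lay on either side of both sorted-protoplast arrays. The same held for AT3G08610 and AT5G47570, also of complex I, whose signals were 4454 and 4582, and 3803 and 3709, in sorted protoplasts, against 7420 and 3845, and 6360 and 3469, in whole roots. AT5G11770, for the PSST subunit that carries an iron-sulfur cluster of complex I, was the only subunit gene of the 9 without overlap, with 3986 and 3406 in sorted protoplasts, against 4809 and 4133 in whole roots. Its difference was -0.27 ± 0.34. The genes AT4G20150 (complex I), AT4G37830 (cytochrome c oxidase) and AT1G51650 (the epsilon subunit of ATP synthase) had differences of -0.40, -0.30 and -0.35. The carrier gene AT5G19760, whose protein exchanges dicarboxylates and tricarboxylates across the inner membrane, had 4280 and 4003 in sorted protoplasts, against 4288 and 4784 in whole roots, and a difference of -0.13 ± 0.33.

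The sign of the mitochondrial group rested on 1 array. Its median was -0.26, with 9 of 10 genes below 0. Without whole roots replicate 1 it was 0.11, with 3 of 10 below 0, and without whole roots replicate 2 it was -0.66, with 10 of 10. A list of 69 nuclear genes of the 4 complexes, written after the members had been seen, had 43 tested genes. Their median was -0.33, against -0.16 over all tested probe sets, and 35 lay below 0, or 81.4%, against 59.1%. This too leaned on 1 array. Without whole roots replicate 1 the list's median was -0.10, with 28 of 43 below 0. Without whole roots replicate 2 it was -0.74, with 36 of 43 below 0. Of the 43, 1 passed higher and 1 lower, or 2.33% lower, against 6.38% higher and 4.11% lower over all tested. Those 2 were outside the 50. AT5G25450, for a subunit of the cytochrome bc1 complex, had 301 and 633 in sorted protoplasts, against 91 and 88 in whole roots, and its difference was 2.10 ± 0.41 (SE; limma adjusted p = 0.0124). AT5G61310, for a cytochrome c oxidase subunit, had 104 and 94 in sorted protoplasts, against 808 and 308 in whole roots, a difference of -2.17 ± 0.46 (limma adjusted p = 0.0172). Neither passed with no filter or without whole roots replicate 1, where the list had 0 calls. AT5G25450 also did not pass with spike-in scaling (limma adjusted p = 0.0962) or without whole roots replicate 2 (limma adjusted p = 0.128).

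By the rule, the genes of dehydration and stress proteins were bright in both preparations, as all members were. AT2G23120, an LEA protein gene, had 8223 and 12117 in sorted protoplasts, against 11392 and 6709 in whole roots, a difference of 0.19 ± 0.39. The dehydrin gene AT1G54410 (HIRD11) had 5853 and 10351 in sorted protoplasts, against 8197 and 4237 in whole roots, a difference of 0.40 ± 0.43. For both genes the replicates of each preparation lay further apart than the means of the preparations. AT2G44060 (LEA26) had 4439 and 3606 in sorted protoplasts, against 3090 and 3077 in whole roots, without overlap and with a difference of 0.37 ± 0.34.

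AT1G05340, for a small cysteine-rich membrane protein of a stress-linked family, had 6679 and 6773 in sorted protoplasts, against 11088 and 6146 in whole roots. Its difference was -0.30 ± 0.38 with all arrays and 0.13 without whole roots replicate 1. AT5G61820, of a family named for stress up-regulation, had 6484 and 6931 in sorted protoplasts, against 6847 and 6045 in whole roots. The highest of its 4 signals was 1.15 times the lowest, the smallest such ratio of the 50 genes. The median over the 5 genes was 0.19 with all arrays, -0.07 without whole roots replicate 2 and -0.27 with arrays scaled on spike-ins. With no array of roots without salt, the response of these genes to salt cannot be read here.

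All 5 enzyme genes had a higher mean in sorted protoplasts. AT1G22410 had the highest difference of the 50 genes. It encodes a DAHP synthase, which starts the shikimate pathway to aromatic amino acids and phenolic compounds. Its signals were 5453 and 7819 in sorted protoplasts, against 3170 and 3273 in whole roots, so that both sorted-protoplast arrays lay well above both whole-root arrays. The log2 difference was 1.02 ± 0.35, with a 95% interval from 0.23 to 1.80. It did not pass over all probe sets as deposited, and it was the 1 member called higher with quantile normalization (difference 0.99) and with arrays scaled on the other bright probe sets (1.07). With spike-in scaling its difference was 0.56 and it was not called.

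AT5G64250, of a family of TIM barrel enzymes, had 4281 and 6262 in sorted protoplasts, against 3656 and 3738 in whole roots, also without overlap, and a difference of 0.48 ± 0.35. AT2G25450, for a dioxygenase that uses oxoglutarate and acts on glucosinolate side chains, had 6444 and 5677 in sorted protoplasts, against 5888 and 4656 in whole roots. The fructokinase family gene AT2G31390 had 5218 and 4469 in sorted protoplasts, against 4810 and 3603 in whole roots. AT3G02360, for phosphogluconate dehydrogenase of the oxidative pentose phosphate pathway, had 4716 and 5863 in sorted protoplasts, against 5320 and 4067 in whole roots. In these last 3 genes the groups overlapped, and the differences were 0.21, 0.21 and 0.18, below their SE of 0.34 to 0.35. With spike-in scaling 3 of the 5 enzyme genes lay below 0.

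Genes of wall and secreted proteins went both ways. AT1G78040, of a family of secreted proteins related to pollen allergens and extensins, had 8471 and 7782 in sorted protoplasts, against 8466 and 6853 in whole roots, and a difference of 0.09 ± 0.33. The lipid transfer protein family genes AT3G53980 and AT1G48750, whose proteins bind lipids outside the cell, had differences of 0.16 ± 0.39 and -0.35 ± 0.38. AT3G53980 had 5483 and 9340 in sorted protoplasts, against 7805 and 5288 in whole roots, so the groups overlapped and the replicates of each preparation lay further apart than the means of the 2 preparations. AT1G48750 had 3315 and 3708 in sorted protoplasts, against 5935 and 3354 in whole roots. AT5G55180, of a family of beta-glucanases that act on wall glucans, had 4689 and 4285 in sorted protoplasts, against 4012 and 4534 in whole roots. AT3G56310, for an alpha-galactosidase, had 3237 and 3463 in sorted protoplasts, against 4899 and 3966 in whole roots, without overlap and with a difference of -0.40 ± 0.34.

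The 2 members of the family with YGL and LRDR motifs, known as aluminium-induced proteins, were the only group whose highest signal was on whole roots replicate 2 for each gene. AT3G15450 had 4187 and 3413 in sorted protoplasts, against 4594 and 6633 in whole roots, a difference of -0.54 ± 0.36. AT5G43830 had 3635 and 3372 in sorted protoplasts, against 3709 and 4114 in whole roots, a difference of -0.16 ± 0.33. Neither pair of groups overlapped, although for AT5G43830 the nearest signals of the 2 preparations, 3635 and 3709, were close.

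Among the 5 remaining genes, AT5G64400, for a protein with a CHCH domain, had 6844 and 8762 in sorted protoplasts, against 6824 and 5718 in whole roots. Its difference was 0.31 ± 0.34. AT3G48140, of the B12D family, had 3667 and 5367 in sorted protoplasts, against 7142 and 4468 in whole roots, and a difference of -0.35 ± 0.38. No role is given for the other 3. AT2G46540 had 3048 and 3455 in sorted protoplasts, against 6890 and 3929 in whole roots, without overlap and with a difference of -0.68 ± 0.38. AT4G30010 had 3002 and 3468 in sorted protoplasts, against 5530 and 3886 in whole roots, and a difference of -0.52 ± 0.35. AT5G39570 had 4221 and 4117 in sorted protoplasts, against 6821 and 4224 in whole roots, so that the second whole-root signal was nearly that of sorted protoplasts replicate 1. Its difference was -0.36 ± 0.36.

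Over the 4 arrays the highest signal of a gene was at least 1.15 and at most 3.51 times the lowest, with a median of 1.73. In 11 of the 50 genes it was under 1.5 times. After AT5G61820 the steadiest were AT5G55180 at 1.17, AT5G19760 at 1.20, AT5G43830 at 1.22 and AT1G78040 at 1.24, and these 5 genes belong to 4 groups. The widest range was that of AT4G39200 at 3.51, followed by AT1G67430 at 2.65, AT1G22410 at 2.47 and AT1G54410 at 2.44. For 35 of the 50 genes the difference between the preparations was smaller than the gap between replicates of at least 1 preparation. The same held for 122 of the 150 other probe sets as bright on all 4 arrays and for 7629 of the 13647 tested.

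Genes near the threshold did not stand apart from it. Just inside it were AT4G30010 with a lowest signal of 3001.8, AT2G46540 with 3048.0, AT2G44060 with 3077.2 and AT1G67350 with 3149.7. Just outside it were AT5G44380 with 2993.2, AT2G34480 with 2966.6, AT1G70780 with 2957.9 and AT1G64190 with 2942.6. Their log2 differences were 0.11, -0.88, 0.20 and -0.58. A threshold of 4000 left 23 genes and one of 2000 gave 117, with median differences of -0.25 and -0.35. When the mean over the 4 arrays had to reach 3000 in place of every array, 135 genes qualified. Of these, 11 were higher and 5 lower in limma's test, against 6.38% and 4.11% of all tested probe sets (870 and 561 of 13647).

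Beside the 150 other probe sets with 3000 or more on all 4 arrays, the 50 genes had a lower median difference, -0.30 against -0.06, a gap that was not tested. Those 150 comprised 17 with a single nuclear gene matched in the gene table and 133 with no single gene so matched. Outside the ribosomal protein, translation factor and mitochondrial genes, the median of the 22 remaining members was 0.08. On each array the 50 genes lay in the brightest 1.67% to 2.08% of probe sets, a place that the threshold set. They held 3.14% and 3.52% of the summed signal in sorted protoplasts, against 4.39% and 3.39% in whole roots. Of 20 markers of root cell types and of shoots, 6 were read by a probe set of their own. None of those 6 was listed as a marker of non-hair epidermis, endodermis, stele, root cap or phloem. The root hair markers EXPA7 and EXPA18 had 121 to 222 in sorted protoplasts, against 607 to 1001 in whole roots. The xylem marker IRX15 had 128 to 218 in sorted protoplasts, against 47.2 to 54.8 in whole roots. The cortex marker AT1G62500 had 2.9 to 17.5 in sorted protoplasts, against 16.9 to 32.8 in whole roots. These signals lay below the filter at about 51.3, so this marker was too dim to be tested. The shoot markers RCA and LHCB4.1 had 60.4 to 172 in sorted protoplasts, against 134 to 257 in whole roots. Their part in the differences of the 50 genes was not tested.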

How the data were processed

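RNA from 2 samples of sorted protoplasts and 2 of whole roots was amplified in 2 cycles and hybridized to 1 array each, per the labels' protocols. What the authors deposited is a linear signal intensity for each probe set. The submitters' processing notes name MAS5, with no version given in the sources used here. The trimmed mean (2% left out at each end) was 250.02 or 250.03 on every array, so the authors had scaled the arrays alike. Of the columns 0 were left unmapped. The number of arrays limits the precision.

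Probe sets were named through the platform annotation and the TAIR10.1 RefSeq gene table: of 22746 without controls, 13513 had 1 gene, of which 13436 matched, 503 had several and 8730 were not listed. Signals became log2(signal + 16), the 40% with the lowest mean (under a signal of about 51.3) were left out, and the other 13647, all 50 members included, went into a linear model in limma 3.58.1 under R 4.3.3 (eBayes with a trend, 2 residual and 7.56 prior degrees of freedom, two-sided, Benjamini-Hochberg). The fit was tested on simulated data.

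The members, groups and lists were chosen with earlier results of these data known. The genes named were the 12 brightest, the 8 highest and 8 lowest differences, the 4 on each side of the threshold, the 2 brightest of each group and, in addition, other members and list genes chosen after their values were seen. Groups had been planned from product names, and promoters and proteins were to be searched. No such tables or sequences were used here, so groups rest on general knowledge of the loci. Where several probe sets matched a listed gene, the brightest stood for it. Lists of 14 glycolysis genes and 19 actin and tubulin genes had 4 and 7 tested genes, of which 0 passed, with 1 at an unadjusted p under 0.05 in each, and a list of 7 ubiquitin genes had 0 tested. Alternatives were other offsets, filters, scalings, prior variances, thresholds, a replicate block and each array left out.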

Additional observations from a re-analysis of the deposited data

How the results depend on the processing

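Scaling on the other bright probe sets, crossed replicate numbers and the settings run on gene groups and lists were chosen after seeing the data. For each value that moved, the cause was not tested, except where it is named. The 870 higher and 561 lower calls over all probe sets became 394 and 137 with no filter, 393 and 107 at an adjusted p under 0.01, which is stricter by construction, and 421 and 680 on the spike-in scale, where lower calls outnumbered higher ones. Leaving out single arrays gave 167 to 989 higher and 25 to 649 lower calls: 192 and 54 without whole roots replicate 1, and 167 and 25 without whole roots replicate 2. Members called were 0 higher and 0 lower, against 1 higher with quantile normalization, 9 lower with spike-in scaling and 1 and 1 with scaling on the other bright probe sets. With a single array left out 1 preparation rests on 1 array, so no count of members called is read from those fits. The members' median log2 difference, -0.30, was -0.76 with spike-in scaling, which moved the median of all tested probe sets to -0.57 from -0.16, and ranged from -0.55 to -0.02 with 1 array left out. The rule gave 117 genes at a signal of 2000 (1 called higher), 23 at 4000 and 135 by the mean signal (11 called higher and 5 lower).

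Same-numbered replicates share only a number, and their deviations correlated at -0.156. Adding the replicate block gave 1123 higher and 787 lower calls, with 0 members among them, and crossing the numbers in the block gave 1137 and 922, with 1 member higher and 1 lower. For 31 named members, 310 comparisons with an alternative were made. The log2 difference moved by less than the spread between replicates in 279. It moved by more in 31, of which 23 came with spike-in scaling. The replicate block leaves these differences unchanged by design, and offsets of 1 and 64 hardly move signals this high. Each of those settings gave 31 of the 279, which are no sign of steadiness. Dim signal does not limit these genes, since the lowest of their signals was 3002. The highest was 13901 on whole roots replicate 1, where the brightest probe set had 14483, and a ceiling on signal was not tested.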
